A study of Mus musculus with 12 samples.

Results

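The anaphase-promoting complex (APC/C), its coactivator Cdc20 and its ubiquitin-conjugating enzyme Ube2s were followed here through 10 genes, out of 24062 genes counted, in mouse oocytes. The genes were Anapc1, Anapc2, Anapc4, Anapc5, Anapc7, Anapc10, Anapc11, Anapc13, Cdc20 and Ube2s. They were chosen by name, except that Ube2s and Anapc13 were selected on their measured values, for shifting in opposite directions between the diets. The diet values of those 2 genes are therefore descriptions without a test. RNA was sequenced from oocytes of females kept for 9 weeks on a high-fat diet (HFD) or on a control diet (CD), with 6 libraries per diet, each from 4 pooled oocytes. All females ate CD while they were mated with vasectomized males, and oocytes were taken at day 0.5 post coitum. The labels give the same product code for both feeds, with the HFD as a modified form, so the composition of the control feed is uncertain. They count 6 females per diet without tying a female to a pool, so the spread measured is between pools and may be partly technical. The labels state neither strain nor age.

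The APC/C is a ubiquitin ligase of many subunits that marks cyclin B and securin for destruction and so lets chromosomes separate. Its catalytic core is a cullin paired with a RING subunit, carried by a scaffold and by an arm of subunits with tetratricopeptide (TPR) repeats. Coactivators bring substrates, one E2 enzyme places the first ubiquitin and Ube2s lengthens the chain. In an ovulated mammalian egg the complex is held back by Fbxo43 (Emi2) until fertilisation, which keeps the egg in metaphase of the second meiotic division.

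Some differences between libraries followed diet and others did not. Gene counts as deposited summed to between 8409491 and 13793598 in HFD and between 8556396 and 10477316 in CD. Every count was even in HFD replicates 1, 2, 4 and 6 and in no CD library. Counts and reads per gene are given as deposited, so those of the all-even libraries may not compare with the others. Reads aligned to more than 1 place made up 26.8% to 35.7% of tallied reads in HFD and 18.6% to 26.5% in CD, without overlap, and all reads tallied outside genes made up 66.5% to 72.9% and 62.3% to 66.6%. All 12 oocyte markers passed the filter on low counts, while of the cumulus and granulosa markers 2 of 14 passed, of the oviduct markers 2 of 5 and of the blood and immune markers 0 of 4, with Amh, Ptx3, Hba-a1 and Hbb-bs at 0 in every library. The summed cumulus and granulosa level ranged from 102 to 1802 CPM (gene reads per library, brought to one total by TMM factors) in HFD and from 123 to 1346 in CD (difference −57.2 CPM; two-sided exact permutation test, p = 0.877). Without Serpine2 the other 13 markers summed to 18.2 to 43.4 CPM in HFD and 29.3 to 80.4 CPM in CD. In this unplanned comparison the difference was −16.7 CPM (exact permutation test, p = 0.0606). In HFD replicates 1 and 2 and CD replicates 2 and 4, Mos, the kinase that sustains metaphase arrest, lay between 3.83 and 9.37 CPM and the oocyte growth factor Gdf9 between 542 and 614 CPM, against 146 to 1697 and 4587 to 9613 CPM in the other 8 libraries. Gdf9, its partner Bmp15 and the zona protein Zp3 had log2 fold changes (HFD minus CD) of −0.13 ± 0.75, −0.39 ± 0.42 and 3.65 ± 1.25 (SE, edgeR, adjusted p = 0.934, 0.622 and 0.121). HFD replicate 3 held 3931 CPM of Zp3, against 10.9 to 195 CPM in the others, and without it the value for Zp3 was 0.90. For the 10 genes, values without some of these libraries are given below. The part of these differences in the results was not tested.

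In the mm10 build, with the GENCODE M21 annotation, the genes span Anapc1 at chr2:128610104-128687391 on the minus strand, Anapc2 at chr2:25272478-25285915 (plus), Anapc4 at chr5:52834012-52867797 (plus), Anapc5 at chr5:122787459-122821339 (minus) and Anapc7 at chr5:122421693-122444912 (plus). Anapc10 is at chr8:79711820-79779059 (plus), Anapc11 at chr11:120598421-120608198 (plus), Anapc13 at chr9:102626296-102634425 (plus), Cdc20 at chr4:118432901-118437352 (minus) and Ube2s at chr7:4794546-4812590 (minus). The library chemistry does not mark strand, so reads from overlapping exons of genes on opposite strands cannot be told apart. Such overlap spans 239 bases of Anapc13 with Cep63, 53 bases of Cdc20 with Elovl1 and 183 bases of Ube2s with Rpl28. Processed pseudogenes at least 90% identical over at least 100 bases were found for Anapc5, for Anapc10 (Gm15530, 97.3% over 553 bases), for Anapc13 (Gm6954, 94.2% over 225 bases) and for Cdc20 (Gm7856, 93.7% over 1512 bases), so the counts of these 4 genes are uncertain.

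Sequence upstream of the start was examined in the RefSeq promoter table (GRCm38.p6), in which all 10 members matched, with 12 starts. The following 5 short motifs were searched on both strands of the 250 bases before each start: CCAAT (the box bound by NF-Y), TTTGAA (the cell-cycle homology element), GGGCGG (the GC box), TATAAA (the TATA box) and CACGTG (the E-box). The stretches below are shown for Cdc20, whose window held 3 of the 5 motifs, and for the 2 genes picked by diet. Only bases outside annotated exons are printed, except for 30 bases around the TATAAA of Ube2s, which lie in an annotated first exon of a longer transcript. Capitals mark the motif letters on either strand, and no matches overlap in these stretches.
Cdc20 promoter, chr4:118437353-118437593, minus strand: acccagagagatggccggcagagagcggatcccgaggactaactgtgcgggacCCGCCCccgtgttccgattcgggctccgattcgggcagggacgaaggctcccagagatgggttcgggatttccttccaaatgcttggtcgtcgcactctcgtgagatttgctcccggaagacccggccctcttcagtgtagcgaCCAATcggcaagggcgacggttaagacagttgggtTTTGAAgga
Ube2s, chr7:4812367-4812396, minus strand: cctgcgagtagcTATAAAagtgcggtgttg
Anapc13 promoter, chr9:102626125-102626262, plus strand: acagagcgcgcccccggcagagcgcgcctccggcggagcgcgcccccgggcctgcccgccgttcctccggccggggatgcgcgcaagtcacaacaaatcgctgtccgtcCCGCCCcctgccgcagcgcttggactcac

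Each motif was counted per member, at any of its starts, while the background is per promoter entry. GGGCGG was in the window of 6 of 10 members (Anapc4, Anapc7, Anapc11, Anapc13, Cdc20 and Ube2s), against 32.7% of all 32851 promoter entries. CCAAT was in 4 of 10 (Anapc5, Anapc10, Anapc11 and Cdc20), against 33.8% of entries. TTTGAA was in 2 of 10 (Anapc7 and Cdc20), against 16% of entries, and in Cdc20 it began 18 bases before the start. TATAAA was in Ube2s alone, beginning 44 bases before its start, against 12.4% of entries. CACGTG was in none of the 10 and in 6.02% of entries. Counted per start, as the entries are, GGGCGG was at 6 of 12 member starts, CCAAT at 4, TTTGAA at 2 and TATAAA at 1. These are matches of letters only.

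A gene on the other strand had an exon inside the same window for 4 of 10 members: Ssna1 beside Anapc2, Abce1 beside Anapc10, Alyref beside Anapc11 and Cep63 beside Anapc13. Of the 7536 genes that passed the filter and had a promoter entry, 23.9% had such a neighbour. Anapc13 did not pass the filter and is not among them. These 4 members are the ones whose fold changes, given below, lay above 0, and the 6 without such a neighbour lay below 0. The signs of Anapc13 and Ube2s were fixed by how they were picked, and Anapc2 fell to −0.040 without replicate 3 of both diets. The pattern was noticed after the values were seen and was not tested. Over all genes with such a neighbour the median log2 fold change was 0.09, and over those without it was 0.00. The neighbours themselves stood at 0.76 ± 0.43 (Ssna1), −0.46 ± 0.45 (Abce1), 0.72 ± 0.43 (Alyref) and −0.03 ± 0.55 (Cep63), with edgeR adjusted p between 0.315 and 0.978.

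Ube2s, the E2 that extends ubiquitin chains on APC/C substrates, was lower in every HFD pool than in every CD pool. Its CPM values were 54.3, 32.9, 50.8, 45.2, 50.9 and 46.2 in HFD replicates 1 to 6 and 87.5, 61.1, 128, 128, 95.7 and 107 in CD replicates 1 to 6. The 2 lowest pools of their diets were HFD replicate 2 and CD replicate 2, and CD replicates 3 and 4 were the highest. The means were 46.7 ± 7.56 and 101 ± 25.6 CPM (SD, n = 6 each), a ratio of 0.462, and the log2 fold change was −1.11 ± 0.25 (SE). Of all tested genes, 1.28% were lower in every HFD pool than in every CD pool. Since Ube2s was picked for this shift, no test of it is given. Fold changes ran from −1.23 to −1.03 with each library left out, and the value was −1.10 without the 4 libraries low in Mos. Rpl28, whose exons overlap those of Ube2s, stood between 0.373 and 2.10 CPM in all pools except HFD replicate 3, at 37.0 CPM. In pools of cells, less of an mRNA per oocyte and fewer oocytes that carry it cannot be told apart.

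Cdc20, the coactivator that brings cyclin B and securin to the complex, had overlapping levels in the 2 diets. HFD pools ranged from 115 to 409 CPM with a median of 298, and CD pools from 273 to 399 CPM with a median of 337. HFD replicate 3 was the lowest of the 12 pools and HFD replicate 2 the highest. The log2 fold change was −0.25 ± 0.27 (edgeR, adjusted p = 0.616), or −0.10 without HFD replicate 3. Among the CD pools Cdc20 was the steadiest member, with a coefficient of variation of 14.1%, against 25.3% to 90.1% for the other members.

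The catalytic and substrate-binding subunits were higher on average in HFD, without passing the threshold. Anapc10, which helps hold the substrate's destruction motif, ranged from 222 to 822 CPM in HFD (median 481) and from 129 to 338 CPM in CD (median 250). Its HFD pools lay above all CD pools except for HFD replicate 3, and CD replicate 3 was the lowest of the 12. The means were 515 ± 215 and 250 ± 75.0 CPM (SD, n = 6 each), and the log2 fold change was 1.04 ± 0.32 (edgeR, adjusted p = 0.105), with 5 of 6 HFD pools above the CD mean. Among the 8 libraries with odd counts, where HFD is represented by replicates 3 and 5 alone, that value was 0.32.

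Anapc11, the RING subunit that receives the E2, ranged from 9.36 to 88.6 CPM in HFD (median 30.3) and from 6.61 to 24.4 CPM in CD (median 18.9). HFD replicate 3 was far the highest, and HFD replicates 1 and 2 lay among the CD pools. The log2 fold change was 1.15 ± 0.49 (edgeR, adjusted p = 0.191), or 0.65 without HFD replicate 3. Anapc2, the cullin that pairs with it, was the least counted of the tested members, with 285 reads over the HFD pools and 173 over the CD pools. It ranged from 0.660 to 11.3 CPM in HFD and from 0.754 to 5.09 CPM in CD, with HFD replicate 3 again at the top. Its log2 fold change of 0.66 ± 0.64 (edgeR, adjusted p = 0.580) was 0.16 without HFD replicate 3 and −0.040 without replicate 3 of both diets.

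The scaffold subunits lay lower on average in HFD, again without passing the threshold. Anapc1, the largest subunit, ranged from 17.1 to 42.8 CPM in HFD (median 20.9) and from 22.2 to 147 CPM in CD (median 36.1). CD replicate 3, at 147 CPM, stood apart from the other CD pools, of which the next was at 51.5 CPM. The log2 fold change was −1.13 ± 0.46 (edgeR, adjusted p = 0.174), with 6 of 6 HFD pools below the CD mean, or −0.53 without CD replicate 3.

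Anapc4, a platform subunit between the catalytic core and the TPR arm, ranged from 26.8 to 74.5 CPM in HFD (median 40.8) and from 52.4 to 103 CPM in CD (median 66.6). Of 6 HFD pools, 4 lay below all CD pools, and HFD replicates 3 and 4 lay among them. Its log2 fold change was −0.75 ± 0.31 (edgeR, adjusted p = 0.181). Anapc5, its neighbour in the platform, ranged from 38.9 to 92.1 CPM in HFD and from 37.7 to 167 CPM in CD, and the lowest of the 12 pools was CD replicate 1. Between the diets its log2 fold change was −0.71 ± 0.36 (edgeR, adjusted p = 0.256), with 6 of 6 HFD pools below the CD mean.

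Of the TPR arm, Anapc7, itself a TPR subunit, ranged from 18.5 to 34.2 CPM in HFD and from 19.5 to 46.0 CPM in CD. For Anapc7 the log2 fold change was −0.39 ± 0.30 (edgeR, adjusted p = 0.457), and the diets overlapped. Anapc13, a small subunit that stabilises the TPR arm, was close to undetected in CD. It had 9, 2, 0, 5, 1 and 7 reads in CD replicates 1 to 6 and 68, 8, 385, 24, 89 and 24 reads in HFD replicates 1 to 6. A count of 0 in CD replicate 3 allows up to 0.283 CPM (3 reads, counting error only).

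In CPM the HFD values of Anapc13 were 5.49, 0.734, 38.3, 2.83, 9.08 and 2.64, and the CD pools reached 0.811 at most. Of 6 HFD pools, 5 lay above all CD pools, and HFD replicate 2 lay among them. HFD replicate 3 alone supplied 385 of the 598 HFD reads as deposited. The gene did not pass the filter on low counts, and with no filter its log2 fold change was 4.48, or 3.33 without HFD replicate 3; it was picked for this shift, so no test is given. Cep63, which shares exonic bases with it on the other strand, ranged from 1.54 to 14.0 CPM in HFD and from 3.39 to 15.2 CPM in CD.

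**Figure D1:**
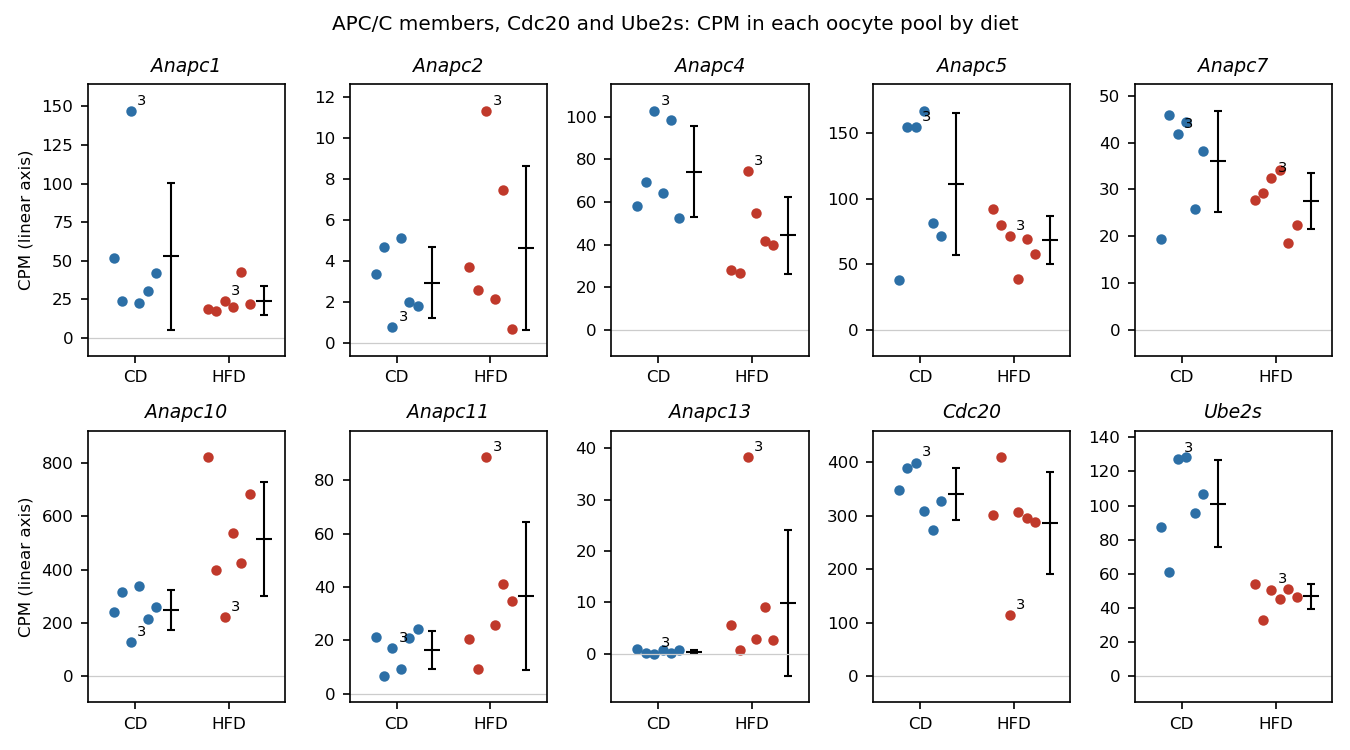
CPM of each of the 10 genes (vertical axes, linear, 1 scale per gene) in each CD and HFD pool; a point is 1 library, the black mark and bar are the mean and SD over 6 libraries, and replicate 3 of each diet is numbered. Ube2s, picked for its diet shift, is the only gene whose diets do not overlap (32.9 to 54.3 CPM in HFD, 61.1 to 128 in CD). Over all tested genes, 1.28% lay wholly lower in HFD. HFD replicate 3 is the highest pool for Anapc2, Anapc11 and Anapc13.

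Counted together, the members lay on both sides of 0. Of the 8 members not picked by their diet values, 3 had log2 fold changes above 0 and 5 below 0, where 51.8% of the 9935 tested genes lay above 0, and their median was −0.32 against 0.04 over all tested genes. None of the 8 passed an edgeR adjusted p of 0.05, which called 0% of all tested genes. At an unadjusted p under 0.05, 2 of 8 were higher in HFD (Anapc10 and Anapc11), against 13.4% of all tested genes, and 2 of 8 were lower (Anapc1 and Anapc4), against 8.89%. DESeq2 called 0 of the 8, while it called 4.88% of genes higher and 2.41% lower. The pools of the diets overlapped for all 8, and over all tested genes the HFD pools lay wholly below the CD pools for 1.28% and wholly above for 1.17%.

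Levels could be compared between genes only per length of transcript. In CD the order in CPM per kilobase was Cdc20 (190), Ube2s (81.7), Anapc10 (67.7), Anapc5 (40.4), Anapc4 (19.3), Anapc7 (12.6), Anapc11 (7.90), Anapc1 (5.91), Anapc2 (0.980) and Anapc13 (0.673). Cdc20 stood above Ube2s beyond the spread of the pools, and Anapc1 stood above Anapc2 without overlap of pools, though their mean ± SD ranges overlapped. All other neighbours in the CD order overlapped.

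In HFD the order was Cdc20 (159), Anapc10 (139), Ube2s (37.7), Anapc5 (24.7), Anapc11 (17.5), Anapc13 (16.6), Anapc4 (11.5), Anapc7 (9.62), Anapc1 (2.69) and Anapc2 (1.54). There Anapc10 stood above Ube2s, and Anapc7 above Anapc1, without overlap of pools, and the pools of all other neighbours overlapped. Anapc10 and Ube2s thus overlapped in CD and stood apart in HFD, and Ube2s was picked for being lower in HFD. The lengths are those of the principal coding transcripts, which for Anapc11 run from 962 to 3229 nt and for Anapc10 from 2801 to 4591 nt, so the places of these 2 genes depend on the transcript taken.

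**Figure D2:**
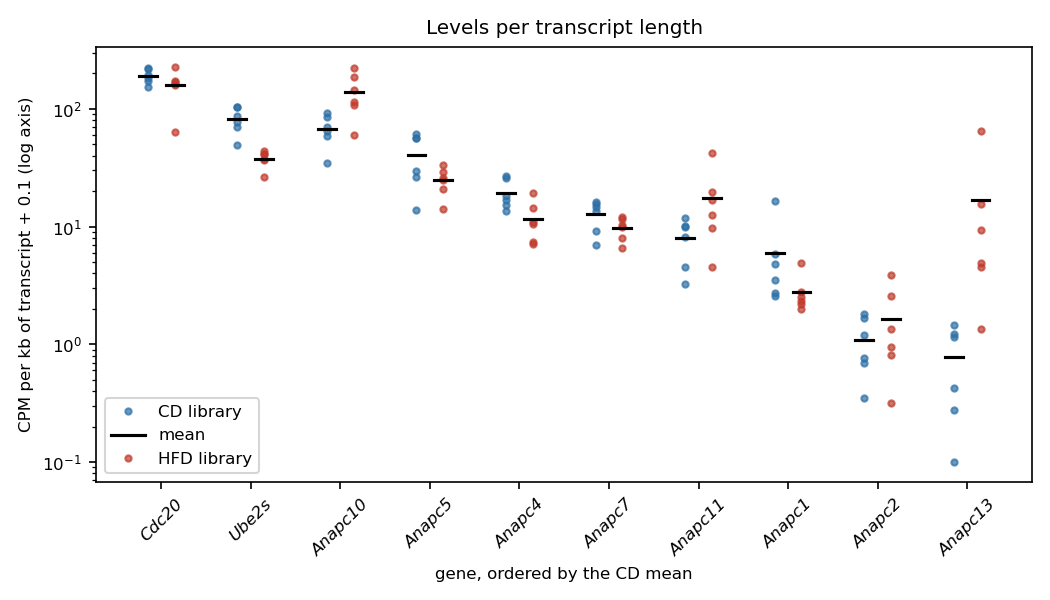
CPM per kilobase of transcript plus 0.1 (vertical log axis) for the 10 genes, ordered by their CD mean; points are CD and HFD libraries and black lines the means of 6. Cdc20 leads in both diets (190 and 159 CPM per kilobase), and the subunits below it spread from 139 down to 0.673.

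The pools that were high or low were not the same for all members. HFD replicate 3 was the highest of the 12 pools for Anapc2, Anapc11 and Anapc13 and the lowest for Cdc20. That library also had the most genes with reads (14755, against 12229 to 13052 in the others). It had the fewest gene counts as deposited (8409491), where HFD replicates 1, 2, 4 and 6 held only even counts. Whether their depth compares with that of the others was not tested. Its share of reads aligned to more than 1 place (35.7%) was the highest, and the part of this in the values was not tested. CD replicate 3 was the highest for Anapc1 and Anapc4 and the lowest for Anapc10 and Anapc13. HFD replicate 2 was the highest for Cdc20 and the lowest for Anapc1, Anapc4 and Ube2s. The summed CPM of the 10 genes ranged from 728 (HFD replicate 3) to 1374 (HFD replicate 1), with the CD pools between 844 and 1120.

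Among the 6 subunits outside the 10, some stood low and others high in the low-Mos libraries. Cdc26, which steadies the TPR subunit Cdc16, lay at 4.69, 3.49, 5.46 and 7.33 CPM in HFD replicates 1 and 2 and CD replicates 2 and 4, and at 34.0 to 135 CPM in the other 8 pools. Cdc27, a TPR subunit that docks coactivators, was also lowest in those 4 pools, at 88.9 to 127 CPM against 145 to 424 CPM. Cdc16, another TPR subunit, stood at 67.9, 69.9, 110 and 109 CPM in the same pools and at 21.2 to 68.8 CPM in the others. Anapc15, which aids turnover of the checkpoint complex, stood at 666, 293, 259 and 275 CPM there, at 337 CPM in HFD replicate 3 and at 33.5 to 134 CPM in the remaining pools. These genes were singled out after their values were seen, and the sets of pools are not groups of the study. Without those 4 libraries the log2 fold changes between the diets were −0.55 for Anapc4, −0.53 for Anapc5, −0.21 for Anapc7, −0.42 for Cdc20, −1.31 for Anapc1, 1.14 for Anapc10, 1.22 for Anapc11 and 1.48 for Anapc2.

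**Figure D3:**
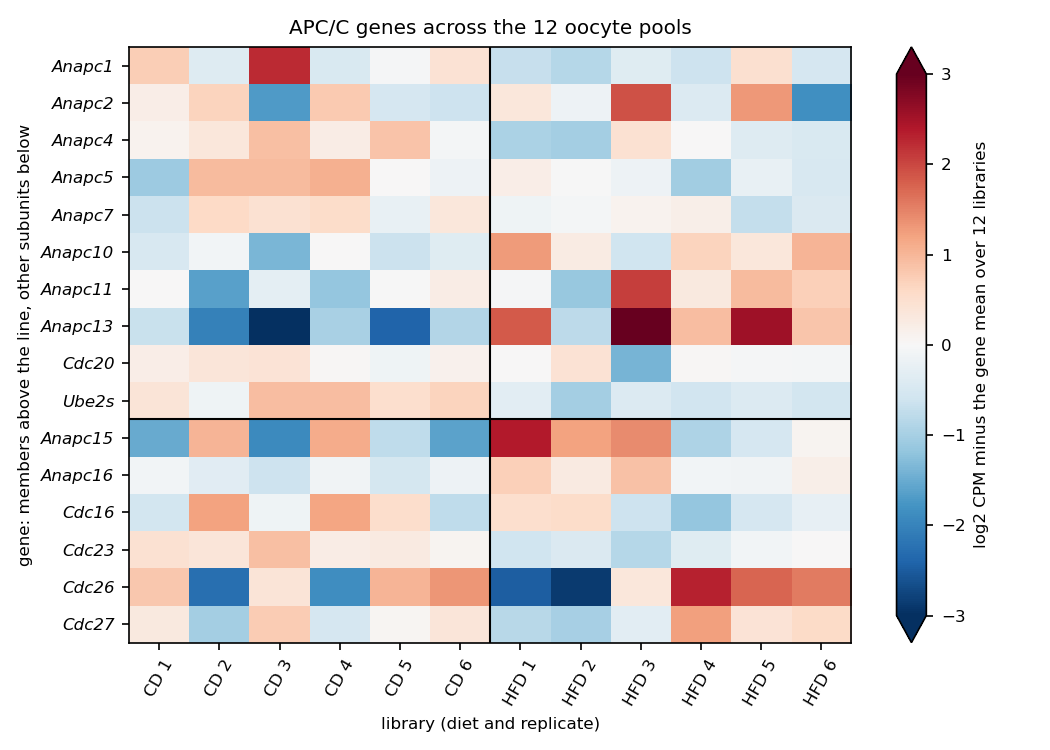
Log2 CPM of each gene minus its mean over the 12 libraries (colour, red above and blue below the mean) for the 10 members and 6 other APC/C subunits (rows) in the 6 CD and 6 HFD pools (columns). Cdc26 is low in CD 2, CD 4, HFD 1 and HFD 2, where it held 3.49 to 7.33 CPM, and Anapc13 is above its mean in 5 of the 6 HFD pools.

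The other genes of the pathway, 36 in 5 lists, were read from the same fit, and 35 of them were tested (Usp44 had too few counts). Of these, 21 had log2 fold changes above 0 and 14 below 0, with a median of 0.12, and edgeR called 0 at an adjusted p of 0.05; at an unadjusted p under 0.05, 4 were higher and 5 lower, where 13.4% and 8.89% of all tested genes were. DESeq2 called 1 higher and 2 lower, against 4.88% and 2.41% of all tested genes. The HFD pools lay wholly below the CD pools for 3 of the 35 (Cdc23, Ube2d2a and Fbxo43) and wholly above for none, against 1.28% and 1.17% of all tested genes.

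Among the 6 other subunits 4 lay above 0 and 2 below 0, with a median of 0.39. Anapc16, a small subunit of the TPR arm, ranged from 79.7 to 157 CPM in HFD and from 55.7 to 80.9 CPM in CD, and the log2 fold change was 0.65 ± 0.25 (edgeR, adjusted p = 0.151). In 5 of 6 HFD pools it lay above all CD pools. Cdc23, a TPR subunit, ranged from 41.5 to 75.7 CPM in HFD and from 79.9 to 139 CPM in CD, without overlap. Its log2 fold change was −0.76 ± 0.24 (edgeR, adjusted p = 0.107; DESeq2, adjusted p = 0.0355), and over the alternatives the adjusted p ran from 0.0355 to 0.363.

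Of the coactivator and E2 list, 4 of 5 lay above 0, with a median of 0.34. Ube2c, the E2 that places the first ubiquitin before Ube2s extends it, ranged from 7.26 to 306 CPM in HFD and from 2.40 to 27.8 CPM in CD. HFD replicate 3 was the highest, and HFD replicates 5 and 6 lay among the CD pools. Its log2 fold change was 2.88 ± 0.80 (edgeR, adjusted p = 0.0956; DESeq2, adjusted p = 0.00642), or 1.99 without HFD replicate 3, and over the alternatives the adjusted p ran from 0.00642 to 0.335. Ube2c and Ube2s, which act in turn, had values on opposite sides of 0, and the difference between the 2 genes was not tested. Ube2s was picked for its lower diet value, and Ube2c is named for the smallest p among the genes of its list above 0. With the trend over transcript length removed, as below, Ube2c stood at 1.87. Ube2d2a, an E2 of broader use, ranged from 110 to 243 CPM in HFD and from 261 to 386 CPM in CD, and the log2 fold change was −0.66 ± 0.24 (edgeR, adjusted p = 0.131).

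Inhibitors and checkpoint genes divided evenly, with 5 of 10 above 0 and a median of 0.06. Fbxo43, the inhibitor that holds the APC/C in the arrested egg, ranged from 93.0 to 217 CPM in HFD and from 251 to 433 CPM in CD, without overlap. Its log2 fold change was −0.80 ± 0.25 (edgeR, adjusted p = 0.105; DESeq2, adjusted p = 0.0450), and over the alternatives the adjusted p ran from 0.0450 to 0.352. Bub1, a kinetochore kinase of the spindle checkpoint, ranged from 8.36 to 57.6 CPM in HFD and from 7.67 to 17.4 CPM in CD. The log2 fold change of Bub1 was 0.99 ± 0.43 (edgeR, adjusted p = 0.197), or 0.58 without HFD replicate 3.

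Substrates had 8 of 12 values above 0 and a median of 0.07. The 2 deubiquitinases tested, Usp37 and Otud7b, lay below 0, with a median of −1.0 that rests on these 2 values. Otud7b held at most 2.35 CPM in HFD and 3.60 CPM in CD, and stood at −1.20 ± 0.81 (edgeR, adjusted p = 0.401). Pttg1, or securin, ranged from 6530 to 27200.1 CPM in HFD and from 4143 to 14160 CPM in CD, and the log2 fold change was 1.01 ± 0.36 (edgeR, adjusted p = 0.132). Plk1, a mitotic kinase, ranged from 45.4 to 192 CPM in HFD and from 120 to 421 CPM in CD. For Plk1 the log2 fold change was −0.79 ± 0.36 (edgeR, adjusted p = 0.211), or −0.56 without CD replicate 3. Usp37, a deubiquitinase that acts on cyclin A, ranged from 51.9 to 105 CPM in HFD and from 95.1 to 266 CPM in CD. For Usp37 the log2 fold change was −0.81 ± 0.29 (edgeR, adjusted p = 0.130), or −0.57 without CD replicate 3.

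**Figure D4:**
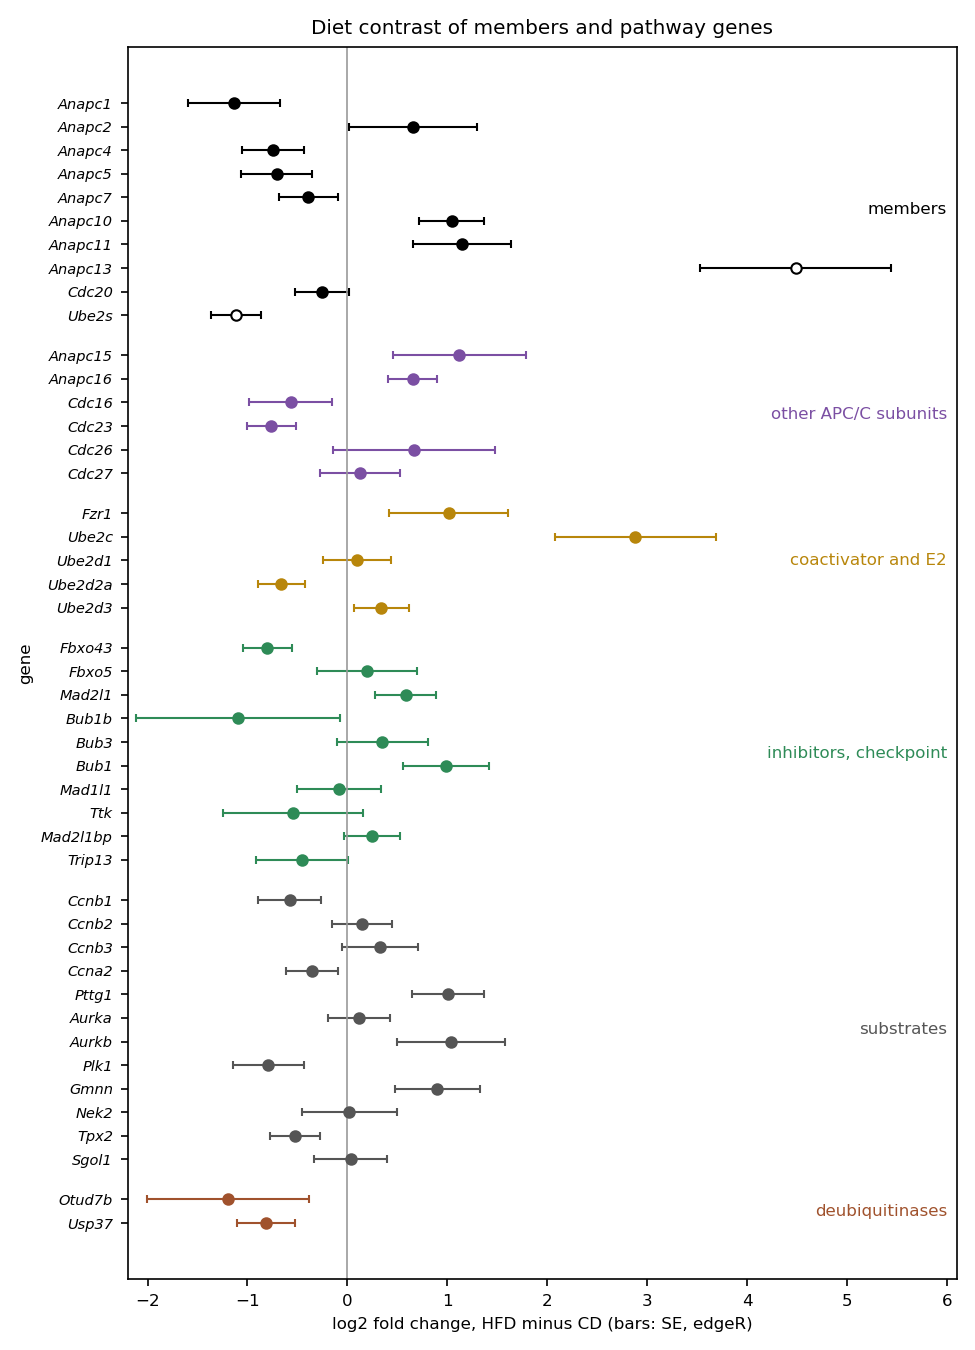
Log2 fold change, HFD minus CD (horizontal axis), of the 10 members and the 35 tested pathway genes by list; points are edgeR estimates, bars their SE, and open points the 2 members picked by their diet values, with Anapc13 from the fit without a filter. The 8 members not picked by diet span both sides of 0, from −1.13 (Anapc1) to 1.15 (Anapc11), and Anapc13 stands at 4.48. None of these 8 and none of the 35 pathway genes passed an adjusted p of 0.05 in edgeR.

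Fold changes went with transcript length over all genes, and the members did not sit together in that trend. Medians of the log2 values in 5 classes, from short to long transcripts, were 0.85, 0.13, −0.17, −0.24 and −0.24. Ube2s, with a transcript of 1238 nt, belongs to the shortest class and stood at −1.11, a shift for which it was picked. With each library's length trend removed its value was −1.79. Anapc10 and Anapc2 lay above 0 in classes whose medians lay below 0, and with the trend removed they stood at 1.24 and 0.79. Anapc1, with the longest transcript of the 10 at 8942 nt, then stood at −0.85, Anapc4 at −0.52, Anapc7 at −0.23 and Cdc20 at −0.46. Pttg1 stood at 1.01 before and 0.10 after the removal.

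The genes whose pattern over the 12 pools was most like that of Ube2s were found by the root mean square difference in log2 CPM after centring each gene on its mean. They were Klhl13, a substrate adaptor of a cullin-3 ligase (0.32), Pcsk7, a proprotein convertase (0.33), and Inpp5a, an inositol phosphatase (0.36), where the median over genes was 1.0. Klhl13 stood at 32.3 ± 4.80 CPM in HFD and 70.1 ± 29.4 in CD (SD, n = 6 each). The nearest to Anapc13 were Cox6a1, a subunit of cytochrome c oxidase (0.71), Usmg5, a small subunit of ATP synthase (0.73), and Ccdc58 (0.76), where the median over genes was 2.26. Cox6a1 ranged from 10.1 to 297 CPM in HFD and from 3.68 to 8.56 CPM in CD. The likeness includes the diet shift for which Ube2s and Anapc13 were picked.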

How the data were processed

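The authors deposited whole-number read counts per gene symbol for 12 libraries, not normalised. Template switching gave full-length cDNA, which was tagmented, per the labels' protocols. STAR, HTSeq 1.0.0, DESeq2 1.0.19 and mm10 are named per the submitters' processing notes; annotation and counting settings were not given in the sources used here. A further 5 tally rows, 62.3% to 72.9% of tallied reads, were left out of library sizes and tests. Reads carried no molecular identifiers.

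The counts were tested with edgeR 4.0.16 (R 4.3.3; TMM, default low-count filter, robust quasi-likelihood F-test on diet), adjusted by the Benjamini-Hochberg method over 9935 genes at a threshold of 0.05. The biological coefficient of variation was 64.0%. SEs are the absolute log2 value divided by the root of F. Log2 CPM used a prior count of 2. DESeq2 1.42.0 and limma 3.58.1 were alternatives, beside other normalisations, no filter, single libraries left out, libraries with odd counts only, all-even counts halved, removal of the length trend and a replicate block. Scripts were tested on simulated counts. Copies were searched with BLAST+ 2.17.0 in GENCODE M21 transcripts, and levels per kilobase used the median of the principal coding transcripts.

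The members and gene lists were chosen with earlier results of these data known. Genes named are the members, the smallest p in each direction of each pathway list, Gdf9, Bmp15 and Zp3. The 3 genes nearest to Ube2s and to Anapc13 are named as well. Others are markers, neighbours or deubiquitinases, or are stated to be picked after their values were known. Leaving out the 4 libraries low in Mos, and leaving out single libraries for Anapc13 without the filter, were added after seeing the data. The marker sum without Serpine2 was not among the planned comparisons.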

Additional observations from a re-analysis of the deposited data

Results flagged for a closer look

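In 11 of the 56 groups of 6 pools examined for named genes, 1 pool lay far from the others of its diet. The measure was the size of its gap to the nearest pool (Dixon's criterion). For independent groups of normally distributed values about 1 in 20, or 2.8 here, would be flagged. These groups share the same 12 libraries and hold CPM on a linear scale, so 11 cannot be read against that number. Anapc1 stood at 42.8 CPM in HFD replicate 5, with the next HFD pool at 23.8, and at 147 CPM in CD replicate 3, with the next CD pool at 51.5. In HFD replicate 3, Anapc13 stood at 38.3 CPM (next 9.08), Ube2c at 306 (next 92.7) and Zp3 at 3931 (next 195). The genes nearest to Anapc13 were also high in that pool, with Cox6a1 at 297 CPM (next 56.1), Usmg5 at 59.6 (next 6.62) and Ccdc58 at 243 (next 25.2); they were chosen for likeness to Anapc13 over these pools. In CD replicate 3, Plk1 stood at 421 CPM (next 232), Usp37 at 266 (next 136) and Bmp15 at 1875 (next 678). Of the 11, 6 fell in HFD replicate 3 and 4 in CD replicate 3.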

How the results depend on the processing

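The count of all genes called, 0 in edgeR, was 708 in DESeq2, 35 in limma-voom and 456 in the libraries with odd counts; pathway genes called, 0 in edgeR, were 3 in DESeq2 and 1 (Ube2c) in the libraries with odd counts. Among the 8 members not picked by diet 0 were called under any of the 23 alternatives. All kept their direction except Anapc2, at −0.040 without replicate 3 of both diets. Gdf9 was −0.13, but 0.051 without replicate 3 of both diets and 0.071 in odd-count libraries alone; with 1 library left out at a time it ran from −0.55 to 0.098; Bmp15 ran from −0.59 to 0.025. The difference in summed cumulus and granulosa level, −57.2 CPM, ran from −281 to 64.4 with each library left out and was 136 without replicate 3 of both diets. With odd-count libraries alone Anapc11 was 1.90, Anapc2 1.6, Anapc10 0.32, Anapc4 −0.42, Cdc20 −0.78 and Pttg1 0.08. Replicate numbers did not pair the pools (correlation of same-numbered deviations from −0.452 to 0.550, with replicates 2 and 6 nearest to their own number); with the replicate block edgeR again called 0 genes, and Anapc1 was −0.84, Anapc2 0.27 and Anapc10 0.99. Halving the all-even libraries moved no member by more than the spread between pools. Scaling to library size cancels a factor shared by a whole library, so this could not show whether those libraries distort the contrast. With a prior count of 0.5, 1 of the 3 genes nearest to Anapc13 and 3 of the 3 nearest to Ube2s were shared. The low counts of Anapc13 and Anapc2 limit what their values show.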
